A study of Homo sapiens with 12 samples.

Results

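The comparison of a6 with its vehicle control covered 15255 genes of the 27146 that the study's 3 comparison tables list between them. All genes of the a6 table were taken, with no choice by value. RNA was sequenced from MDA-MB-231, an established human line of triple-negative breast cancer cells. The a6 group was treated with 2.5 µM a6 for 48 h and had 3 libraries. The Ctrl group received DMSO alone over the same time and had 3 libraries. SAHA and compound 1, each at 2.5 µM for 48 h with 3 libraries, appear below only where their response is set beside that to a6. All groups are the same cell line, and the labels give no engineered allele. The labels describe a6 as a compound with a dual target, histone deacetylases (HDACs) and G-quadruplexes (G4s), and the other pair as compounds with a single target. SAHA is vorinostat, an inhibitor of HDACs.

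HDACs remove acetyl groups from the lysines of histones and of other proteins, and their inhibitors raise histone acetylation and change the transcription of many genes. G4s are stacked structures that guanine-rich DNA or RNA can form, and they occur in many promoters, that of MYC among them, and at telomeres. Small molecules that bind G4s are studied as a means of lowering such genes. In MDA-MB-231 cells, which are mesenchymal in character, genes for matrix proteins, actin regulation and the hypoxia response belong to the usual readouts of an invasive state.

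The deposited values are one comparison per gene: a mean normalized count over the a6 and Ctrl libraries together, a log2 fold change of a6 over Ctrl with its standard error, and a DESeq2 Wald test. Values per library were not analysed here, so whether single libraries of the groups overlap cannot be said, and the depth of each library is unknown. Levels with a6 and in Ctrl were worked out from each gene's mean count and fold change. They are normalized counts and not per length, so levels are compared between groups and not between genes. Beyond the term biological replicate the labels do not say what separates the libraries of a group, so p-values reflect variation among these libraries, some of it possibly technical. The lowest mean normalized count per the authors' deposited table was 9.31, the median 231 and the highest 73216. A gene expressed below that floor is therefore outside the comparison.

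The labelled cell type was checked against its markers. Among markers of the line, the intermediate filament gene VIM had a computed mean normalized count of 17201 with a6 and 20669 in Ctrl, the receptor kinase gene AXL 19414 with a6 and 20472 in Ctrl, and EGFR 2286 with a6 and 2561 in Ctrl, from the authors' deposited table. CD44, a hyaluronan receptor, had 5818 with a6 and 8075 in Ctrl. The epithelial cadherin gene CDH1 and the hormone receptor genes ESR1 and PGR were not in the a6 table. In the compound 1 table they had mean normalized counts of at most 5.38 per the authors' deposited table. Of other cell types, 4 of 13 fibroblast markers, 6 of 14 endothelial markers and 3 of 14 haematopoietic markers were in the a6 table. The fibroblast markers measured summed to a mean normalized count of 542 with a6 and 689 in Ctrl, the endothelial ones to 3352 with a6 and 3748 in Ctrl, and the haematopoietic ones to 71.5 with a6 and 143 in Ctrl. Some markers were listed in neither the a6 nor the compound 1 table. These include the fibroblast genes PDGFRA, DCN, DPT and MFAP5 and the endothelial genes EMCN and ERG. The haematopoietic genes PTPRC, CD3E, MS4A1, SPI1 and FCGR3A are also among them. The part that other cells had in the results was not tested.

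Few genes passed with a6, and as deposited more were lowered than raised. Per the authors' deposited table, 37 genes rose at an adjusted p under 0.05, which is 0.243% of those tested, and 52 fell, which is 0.341%. Both directions together make 0.583%, the share to set beside counts in gene groups below. Those groups were chosen with earlier results of these data known, so a count above that share is not a test of the group. Of the raised genes 35 changed at least 2-fold and 10 at least 4-fold, and of the lowered genes 45 and 9. Over all genes the median log2 fold change was -0.03, and 8260 genes, 54.1%, lay below 0. At an unadjusted p under 0.05, 467 genes were higher and 664 lower. The excess of lowered genes depended on the processing. After centring on the median fold change 43 were raised and 48 lowered, and with the trend on mean count removed 42 and 43. The raised genes had the lower counts, with a median mean normalized count of 89.5 against 237 for the lowered genes. Of the raised genes 25 were protein-coding in GENCODE 29 and 12 of another type, while 51 of the lowered genes were protein-coding and 1 was antisense.

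The size of change that could be called depended on the count, as 3 classes of equal gene number show. In the class of lowest mean counts (9.31 to 102), a gene with the median standard error needed a 3.52-fold change to pass. In the middle class it needed 2.10-fold and in the highest (494 and above) 1.82-fold. A gene that did not pass may thus have changed by less than these sizes, or by more where its standard error was above the median.

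**Figure D1:**
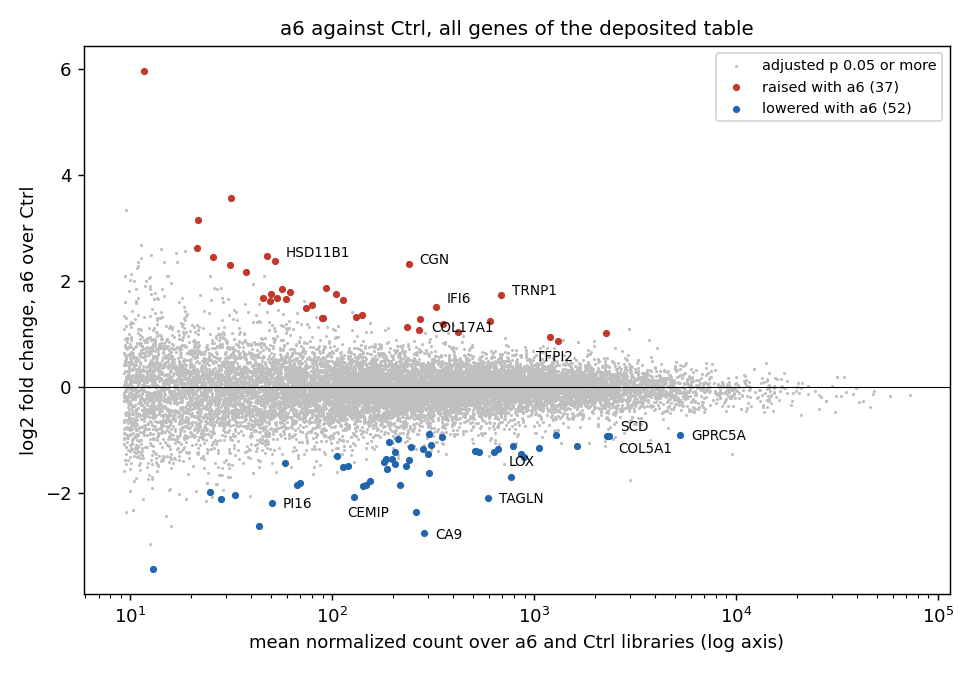
Each point is a gene of the a6 table. The horizontal axis is the mean normalized count over a6 and Ctrl libraries on a log axis and the vertical axis the log2 fold change of a6 over Ctrl; red points are the 37 raised genes and blue points the 52 lowered ones. Raised genes lie mostly at low counts, while lowered genes such as SCD and GPRC5A reach mean normalized counts of 2365 and 5311.

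CA9, a gene of the hypoxia response, had the lowest fold change of the lowered genes that average 50 or more normalized counts. CEMIP, PI16 and TAGLN, described below with other groups, came next, at -2.35, -2.18 and -2.10 per the authors' deposited table. Hypoxia-inducible factors (HIFs) bind a short DNA element in their targets and raise genes for pH control, glycolysis and matrix cross-linking when oxygen is low. CA9, the cell surface carbonic anhydrase IX at chromosome 9, 35673856 to 35681159 on GRCh38, had a computed mean normalized count of 73.5 with a6 and 499 in Ctrl. The authors' deposited table gives it a log2 fold change of -2.76 ± 0.45 and an adjusted p of 1.88e-06 (DESeq2 Wald test); here and below ± is the standard error of the fold change, from 3 a6 and 3 Ctrl libraries. With a6 it was at 14.7% of its level in Ctrl. ALDOC, a glycolytic aldolase at chromosome 17, had 61.5 with a6 and 225 in Ctrl. Per the authors' deposited table it was at -1.87 ± 0.49 (adjusted p 0.0334).

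Of the 42 HIF targets outside glycolysis that were measured, 0 rose and 4 fell. These were CA9, LOX, FUT11 and BHLHE40. LOX, which cross-links collagen, had a computed mean normalized count of 407 with a6 and 922 in Ctrl, and a log2 fold change of -1.18 ± 0.24 and an adjusted p of 0.000583 per the authors' deposited table. FUT11, a fucosyltransferase, was at -1.09 ± 0.24, and the transcriptional repressor gene BHLHE40 at -1.22 ± 0.31, per the authors' deposited table. At an unadjusted p under 0.05, 1 member was higher and 11 lower. The median of the list was -0.34 against -0.03 over all genes, and 37 of its 42 members lay below 0. Most listed members thus had small negative values, and CA9 stood apart at the low end. NDRG1, a stress-induced cytosolic protein, was the nearest to passing: it had 5655 with a6 and 13531 in Ctrl, a log2 fold change of -1.26 ± 0.36 and an adjusted p of 0.0682 per the authors' deposited table. PFKFB4, which makes an activator of glycolysis, was at -0.97 ± 0.29, and the carbonic anhydrase gene CA12 at -1.03 ± 0.31, per the authors' deposited table, and neither passed. VEGFA, the angiogenic growth factor, had 1825 with a6 and 2751 in Ctrl, with a log2 fold change of -0.59 ± 0.30 (adjusted p 0.666) per the authors' deposited table. HIF1A, the oxygen-regulated HIF subunit, was at -0.84 ± 0.38 per the authors' deposited table, without passing.

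Of 20 glycolytic enzymes and transporters, 0 rose and 1 fell, namely ALDOC. The median was -0.32, and 17 lay below 0. At an unadjusted p under 0.05, 0 were higher and 6 lower. The phosphofructokinase PFKL, the enolase ENO2 and the isomerase GPI were at -0.69 ± 0.28, -0.63 ± 0.29 and -0.46 ± 0.23 per the authors' deposited table, and none of them passed. Of 26 genes of pyruvate use, gluconeogenesis and the citric acid cycle, 0 passed in the DESeq2 Wald test and 0 had an unadjusted p under 0.05. Their median was -0.07.

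The promoters of 3 of the lowered genes of this group are shown as examples. They were chosen because the HIF element can be read in them, so its presence there is not a result. They come from RefSeq on GRCh38.p14, on the strand of each gene, from 250 bases before the transcript start to 50 after it. The CA9 window is chr9:35673678-35673977 on the plus strand, the ALDOC window chr17:28576846-28577145 on the minus strand and the LOX window chr5:122078210-122078509 on the minus strand. Capitals mark the HIF element core, ACGTG or GCGTG on either strand, which reads CACGT or CACGC where it lies on the other strand, and overlapping matches are merged.
CA9: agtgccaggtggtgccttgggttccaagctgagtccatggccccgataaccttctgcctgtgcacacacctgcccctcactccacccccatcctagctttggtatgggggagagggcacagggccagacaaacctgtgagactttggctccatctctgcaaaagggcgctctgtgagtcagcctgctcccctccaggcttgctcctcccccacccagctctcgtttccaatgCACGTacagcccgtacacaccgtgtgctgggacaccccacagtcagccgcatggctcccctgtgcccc
ALDOC: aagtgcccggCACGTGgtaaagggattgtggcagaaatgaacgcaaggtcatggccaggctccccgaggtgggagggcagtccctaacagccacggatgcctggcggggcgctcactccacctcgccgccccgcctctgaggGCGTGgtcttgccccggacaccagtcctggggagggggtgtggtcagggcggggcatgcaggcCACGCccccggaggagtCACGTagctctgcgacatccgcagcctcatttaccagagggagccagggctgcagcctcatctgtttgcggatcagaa
LOX: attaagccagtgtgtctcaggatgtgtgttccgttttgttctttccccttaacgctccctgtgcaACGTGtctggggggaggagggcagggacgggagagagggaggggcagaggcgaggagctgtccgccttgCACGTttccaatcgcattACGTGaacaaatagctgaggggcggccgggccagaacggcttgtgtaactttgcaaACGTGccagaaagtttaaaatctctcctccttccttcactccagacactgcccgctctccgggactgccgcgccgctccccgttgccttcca
CA9 has 1 match, beginning at base -18 from the start, and LOX has 4 in the first of its 3 listed promoters. ALDOC has 5, of which the pair at its 5′ end overlap in a palindrome. The core is common in itself. Of the 10451 genes of the a6 table with a promoter in RefSeq, 7303 had it in at least 1, 69.9%. Of the 27305 genes of the whole reference 14318 had it, 52.4%. The core was found for 51 of 55 genes of the HIF and glycolysis lists, 92.7%. For lowered genes it was 26 of 36, 72.2%, and for raised genes 14 of 23, 60.9%. The listed genes had more promoters each, 92 for 55 genes against 15146 for 10451. Per promoter the shares were 75.0% for the lists, 64.8% for lowered genes, 54.1% for raised genes, 60.6% for the a6 table and 48.4% for the reference. A match is a run of letters and not a measured binding site. The part of the element in the fall of these genes was not tested.

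Matrix and cell surface genes made up the next group of lowered genes. CEMIP, which binds hyaluronan and takes part in its breakdown, lies at chromosome 15, 80779343 to 80951776 on GRCh38. Its computed mean normalized count was 85.7 with a6 and 439 in Ctrl. The authors' deposited table puts its log2 fold change at -2.35 ± 0.34, with an adjusted p of 2.56e-08. Of the 28 matrix glycoproteins and hyaluronan genes measured, 0 rose and 1 fell, namely CEMIP. The median was -0.21, and 22 lay below 0. Tenascin C (TNC), a glycoprotein of remodelling matrix, had a computed mean normalized count of 487 with a6 and 825 in Ctrl, a log2 fold change of -0.76 ± 0.24 and an adjusted p of 0.136 per the authors' deposited table. LAMA4, a laminin chain, and EFEMP2, of elastic fibres, were at -2.12 ± 0.72 and -1.19 ± 0.42 per the authors' deposited table, without passing.

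Collagen genes changed in both directions. Of 23 measured, 1 rose and 2 fell, with a median of -0.17. COL5A1, a fibrillar collagen chain, had a computed mean normalized count of 1585 with a6 and 3030 in Ctrl, and a log2 fold change of -0.93 ± 0.22 and an adjusted p of 0.0106 per the authors' deposited table. COL7A1, of the anchoring fibrils under epithelia, had 890 with a6 and 1676 in Ctrl and was at -0.91 ± 0.24 (adjusted p 0.0323) per the authors' deposited table. COL17A1, a transmembrane collagen of hemidesmosomes, rose: it had 387 with a6 and 160 in Ctrl, with a log2 fold change of 1.27 ± 0.24 (adjusted p 0.000296) per the authors' deposited table. COL6A1, COL6A2 and COL1A2 were at -0.76 ± 0.27, -0.81 ± 0.31 and -1.38 ± 0.54 per the authors' deposited table, none of which passed. Of 24 genes that process collagen, 0 rose and 1 fell, which was LOX. Their median was -0.40, with 20 below 0, and at an unadjusted p under 0.05, 1 was higher and 8 lower. The related oxidases LOXL4 and LOXL1 were at -1.06 ± 0.32 and -0.86 ± 0.29 per the authors' deposited table without passing, and so was COLGALT2, which adds galactose to collagen, at -1.12 ± 0.37.

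Transcript length moved with these values. Over all genes, the fifth with the longest transcripts (5530 bases and more in GENCODE 29) lay at a median of -0.11 on the log2 scale, and 64.2% of it below 0, against a median of -0.01 in the fifth with the shortest. With the trend on transcript length removed, an alternative chosen after seeing the data, COL5A1 was at -0.80 with an adjusted p of 0.0578 and COL7A1 at -0.77 with an adjusted p of 0.126. COL7A1 also lost its call with the trend on transcript GC removed (0.0524). GPRC5A and LIMS2 lost their call with them, at -0.79 with an adjusted p of 0.104 and -0.89 with one of 0.0579. L1CAM, NPTXR, UACA, ALDH3B1 and SCARA3, described below, lost theirs too, with adjusted p-values of 0.0554 for SCARA3 to 0.0885 for UACA. The part of RNA quality or library preparation in this trend was not tested.

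Of 32 genes of pericellular proteolysis, 0 rose and 1 fell. This was HTRA3, a secreted serine protease, with a computed mean normalized count of 30.8 with a6 and 109 in Ctrl and a log2 fold change of -1.82 ± 0.44 per the authors' deposited table. The median was -0.26, and at an unadjusted p under 0.05, 0 were higher and 8 lower. ADAM8, a membrane metalloprotease, had 1380 with a6 and 4646 in Ctrl, but its log2 fold change of -1.75 ± 0.71 per the authors' deposited table did not pass (adjusted p 0.414). TIMP3, an inhibitor of metalloproteases, and MMP24 were at -0.60 ± 0.21 and -0.68 ± 0.27 per the authors' deposited table. Other secreted or surface proteins that fell were PI16, a peptidase inhibitor, IGFBP6, which binds insulin-like growth factors, OLFML2A, CRISPLD2, SUSD1 and FNDC10. PI16 had 18.2 with a6 and 82.8 in Ctrl, and a log2 fold change of -2.18 ± 0.45 and an adjusted p of 0.00133 per the authors' deposited table. It is also the single fibroblast marker of 4 measured that fell; the collagen gene COL1A1 and the receptor gene PDGFRB in that list were at -0.16 ± 0.32 and -0.20 ± 0.25 per the authors' deposited table. IGFBP6 had 378 with a6 and 890 in Ctrl and OLFML2A 512 with a6 and 1278 in Ctrl, with log2 fold changes of -1.24 and -1.32 per the authors' deposited table. SUSD1 lost its call after centring (adjusted p 0.0615) and with the trend on mean count removed (0.0780), and FNDC10 with the trend on mean count (0.0535) or GC (0.0515) removed.

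TAGLN had the smallest adjusted p of all genes. It encodes transgelin, an actin-binding protein of contractile cells, and lies at chromosome 11, 117199321 to 117204782 on GRCh38. Its computed mean normalized count was 225 with a6 and 962 in Ctrl. The authors' deposited table puts its log2 fold change at -2.10 ± 0.28, with an adjusted p of 5.91e-10. Of 31 genes of actin and contractility measured, 0 rose and 1 fell, which was TAGLN, and the median was -0.19. The tropomyosin gene TPM1 was at 0.55 ± 0.23, the adhesion gene LPP at -0.71 ± 0.33 and the myosin light chain gene MYL9 at -0.48 ± 0.24 per the authors' deposited table, and none of these 3 passed. Targets of YAP and TEAD, a transcription factor pair that responds to tension, numbered 24 with 0 called in the DESeq2 Wald test; at an unadjusted p under 0.05, 1 was higher and 2 lower. LIMS2, an adaptor of focal adhesions, fell, at -0.94 ± 0.25 per the authors' deposited table. Of 13 integrin genes 1 rose and 0 fell: ITGA7, a laminin receptor subunit, had a computed mean normalized count of 69.3 with a6 and 21.7 in Ctrl and was at 1.68 ± 0.46 per the authors' deposited table. The other 12 were not called, and 11 of the 13 lay below 0, ITGB4 among them at -0.77 ± 0.29 per the authors' deposited table.

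Of 19 annexin and S100 genes 0 rose and 2 fell, ANXA8 and ANXA8L1, which bind membranes in the presence of calcium. ANXA8 had a computed mean normalized count of 123 with a6 and 288 in Ctrl and ANXA8L1 29.2 with a6 and 106 in Ctrl, with log2 fold changes of -1.23 and -1.86 per the authors' deposited table. The pair are near-identical copies, so how reads were split between them is uncertain.

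Several lowered genes encode enzymes of small molecule metabolism. CYP1B1, a cytochrome P450 of oestrogen and xenobiotic oxidation at chromosome 2, had 360 with a6 and 1177 in Ctrl, and a log2 fold change of -1.71 ± 0.30 and an adjusted p of 4.10e-05 per the authors' deposited table. Its antisense neighbour CYP1B1-AS1 had 122 with a6 and 342 in Ctrl. No source used here says if reads were counted by strand, so reads of the pair cannot be told apart. PHYHD1, a dioxygenase, fell to 94.9 with a6, against 341 in Ctrl, and its log2 fold change was -1.85 ± 0.35 per the authors' deposited table. PLAAT4, an acyltransferase raised by retinoids, had 70.4 with a6 and 241 in Ctrl, and was at -1.77 ± 0.32 (adjusted p 7.10e-05) per the authors' deposited table. DHRS3, which reduces retinal, and RARRES2, the adipokine chemerin, were at -1.36 ± 0.33 and -0.89 ± 0.24 per the authors' deposited table. GPRC5A, an orphan receptor induced by retinoic acid, had 3692 with a6 and 6930 in Ctrl, with a log2 fold change of -0.91 ± 0.24 per the authors' deposited table. RARRES2 lost its call after centring and with the trend on mean count or GC removed (adjusted p 0.0668 to 0.0816), and GPRC5A with the trend on mean count removed (0.0518). ALDH3B1, an aldehyde dehydrogenase, and ADI1, of methionine salvage, were at -1.26 ± 0.34 and -1.12 ± 0.24 per the authors' deposited table. ALDH3B1 lost its call with the trend on GC (0.0524) or length (0.0794) removed. SCD, which desaturates fatty acids, had 1629 with a6 and 3102 in Ctrl, and a log2 fold change of -0.93 ± 0.21 and an adjusted p of 0.00414 per the authors' deposited table. In its list of 29 cholesterol and SREBP genes 0 rose and 2 fell, SCD among them, with a median of -0.22. INSIG1, which retains SREBPs in the endoplasmic reticulum, had 527 with a6 and 1100 in Ctrl and was at -1.06 ± 0.37 per the authors' deposited table (adjusted p 0.225).

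Interferon response genes changed in both directions. Of 37 measured, 2 rose and 2 fell. OASL, an antiviral protein related to oligoadenylate synthetases, had a computed mean normalized count of 96.2 with a6 and 280 in Ctrl, and a log2 fold change of -1.54 ± 0.30 and an adjusted p of 0.000298 per the authors' deposited table. DDX60, a helicase of antiviral defence, had 12.1 with a6 and 74.6 in Ctrl and was at -2.62 ± 0.63 per the authors' deposited table. IFI6, a mitochondrial protein induced by interferon, had 484 with a6 and 171 in Ctrl, and a log2 fold change of 1.50 ± 0.32 and an adjusted p of 0.00153 per the authors' deposited table. SP140, a chromatin reader of nuclear bodies, had 120 with a6 and 40.7 in Ctrl and was at 1.55 ± 0.39 per the authors' deposited table. The list's median was -0.22, with 27 below 0, and at an unadjusted p under 0.05, 2 were higher and 9 lower. IFITM1, IFIT1 and IRF7 were at -1.37 ± 0.41, -0.86 ± 0.27 and -1.13 ± 0.39 per the authors' deposited table, without passing. Of 18 genes of MHC class I presentation and 27 NF-kB and inflammatory genes, 0 passed in the DESeq2 Wald test; at an unadjusted p under 0.05, 0 and 2 were higher and 4 and 2 lower. Other immune genes that fell were HLA-DRA, an MHC class II chain, LCN2, which binds bacterial iron carriers, and CST7, a cysteine protease inhibitor of leukocytes, at -1.04 ± 0.27, -1.62 ± 0.44 and -1.36 ± 0.31 per the authors' deposited table. LCN2 had an adjusted p of 0.0535 with the trend on mean count removed. The 3 haematopoietic markers measured did not pass: CSF1R and CD14 were at -1.19 ± 0.40 and -0.58 ± 0.53 per the authors' deposited table, and CD8A had a computed mean normalized count of 21.4 with a6 and 42.9 in Ctrl.

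Genes known from neurons or from cell signalling also fell. L1CAM, an adhesion molecule of axons and of invasive tumours, had a computed mean normalized count of 1033 with a6 and 2235 in Ctrl, and a log2 fold change of -1.11 ± 0.30 and an adjusted p of 0.0358 per the authors' deposited table. In its list of 7 neuronal genes 0 rose and 1 fell, and all 7 lay below 0. With the trend on transcript GC removed L1CAM, the one that fell, had an adjusted p of 0.0521 and with that on length 0.0687, which leaves 0 called. GRIK4, a kainate receptor subunit, had 59.1 with a6 and 168 in Ctrl and was at -1.50 ± 0.32 per the authors' deposited table. NPTXR, the neuronal pentraxin receptor, CELSR1, a cadherin of planar polarity, and SEMA3B, a secreted semaphorin, were at -1.46 ± 0.39, -1.38 ± 0.29 and -1.15 ± 0.26 per the authors' deposited table. PPFIA4, a liprin scaffold protein, had 63.7 with a6 and 231 in Ctrl and was at -1.86 ± 0.39 per the authors' deposited table. RIN1, an effector of Ras, and ARHGEF16, an activator of small GTPases, were at -1.22 ± 0.29 and -1.31 ± 0.33 per the authors' deposited table. The glycosyltransferase MGAT5B, the scavenger receptor SCARA3 and UACA, a protein of apoptosis control, were at -1.17 ± 0.25, -1.14 ± 0.31 and -1.27 ± 0.34 per the authors' deposited table. SCARA3 lost its call after centring and with the trend on mean count, GC or length removed (adjusted p 0.0554 to 0.0748). UACA and NPTXR lost theirs with any of those 3 trends removed, at 0.0556 to 0.0890 for UACA and 0.0521 to 0.0734 for NPTXR.

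HSD11B1 and CGN had the highest fold changes among the raised genes that average 50 or more normalized counts. CGN encodes cingulin, a scaffold of tight junctions, and lies at chromosome 1, 151510510 to 151538692 on GRCh38. Its computed mean normalized count was 402 with a6 and 80.1 in Ctrl. The authors' deposited table puts its log2 fold change at 2.33 ± 0.37, with an adjusted p of 1.88e-06. It was the single member that passed of 31 epithelial junction and keratin genes measured. The median of that list was -0.14, with 23 below 0, and at an unadjusted p under 0.05, 1 was higher and 3 lower. The desmosomal gene PKP3, the claudin gene CLDN3 and the adhesion molecule gene EPCAM were at -0.82 ± 0.28, -1.05 ± 0.46 and -0.65 ± 0.30 per the authors' deposited table, without passing. Of 11 mesenchymal genes and their transcription factors 0 passed in the DESeq2 Wald test and 1 was higher and 1 lower at an unadjusted p under 0.05. These were the cadherin gene CDH2 at 2.13 ± 0.81 and the repressor gene SNAI1 at -1.32 ± 0.61 per the authors' deposited table.

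HSD11B1, which regenerates cortisol from cortisone, had 88.0 with a6 and 17.0 in Ctrl, and a log2 fold change of 2.37 ± 0.47 and an adjusted p of 0.000552 per the authors' deposited table. In its list of 16 genes of glucocorticoid and steroid action 1 rose and 1 fell: CRISPLD2, a glucocorticoid target, was the one that fell, and had 99.0 with a6 and 265 in Ctrl. NR3C1, the glucocorticoid receptor gene, was at -0.61 ± 0.34 per the authors' deposited table, without passing. CYP24A1, which inactivates vitamin D, had 128 with a6 and 52.2 in Ctrl and was at 1.30 ± 0.35 per the authors' deposited table.

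TRNP1, a nuclear protein known in the mouse for its part in cortical development, lies at chromosome 1. It had 1055 with a6 and 317 in Ctrl, and a log2 fold change of 1.73 ± 0.28 and an adjusted p of 1.88e-06 per the authors' deposited table. TFPI2, a secreted protease inhibitor, had 1700 with a6 and 930 in Ctrl, with a log2 fold change of 0.87 ± 0.23 (adjusted p 0.0358) per the authors' deposited table. It and PGP, a phosphatase that clears phosphoglycolate, were the raised genes that changed less than 2-fold. PGP had 1577 with a6 and 820 in Ctrl.

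Other raised genes encode receptors, regulators and enzymes. The endothelin receptor gene EDNRB had a computed mean normalized count of 187 with a6 and 75.2 in Ctrl and was at 1.32 ± 0.33 per the authors' deposited table. RGS4, which speeds GTP hydrolysis by G proteins, had 203 with a6 and 79.8 in Ctrl and was at 1.35 ± 0.33 per the authors' deposited table. FLI1, an ETS transcription factor of endothelial and blood cells, had 110 with a6 and 39.4 in Ctrl and was at 1.48 ± 0.37 per the authors' deposited table. It was the single endothelial marker that rose of 6 measured, while ESAM and EGFL7 were at 0.12 ± 0.22 and -0.54 ± 0.34 per the authors' deposited table. TAS1R3, a subunit of the sweet and umami taste receptors, FGGY, a carbohydrate kinase, KIAA1755 and the long noncoding RNA LNCOG were at 1.80 ± 0.48, 1.68 ± 0.41, 1.67 ± 0.43 and 1.65 ± 0.33 per the authors' deposited table. MAMDC2, a matrix protein, had 851 with a6 and 361 in Ctrl and was at 1.24 ± 0.34 per the authors' deposited table. APLP1, of the amyloid precursor family, and TMCC2 were at 1.19 ± 0.32 and 1.04 ± 0.28 per the authors' deposited table. RPL13AP20, at 1.14 ± 0.30 per the authors' deposited table, is a pseudogene whose reads can come from its parent gene.

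At mean normalized counts under 50 there were 10 raised and 5 lowered genes, most of which no list holds, and those named here were chosen after their values were seen. AADACP1, a pseudogene, had a computed mean normalized count of 23.2 with a6 and 0.371 in Ctrl, near the least that could be counted. DCLK1, a kinase of neurons and tuft cells, had 39.2 with a6 and 4.42 in Ctrl, with a log2 fold change of 3.15 and a standard error of 0.67 per the authors' deposited table. TMEM86A had 80.7 with a6 and 14.5 in Ctrl and an adjusted p of 2.14e-05 per the authors' deposited table. TRBV6-5, at 2.62 ± 0.62 per the authors' deposited table, belongs to a family of similar sequences, so its reads are uncertain. The lowered KLF17, a transcription factor, had 2.19 with a6 and 23.8 in Ctrl.

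**Figure D2:**
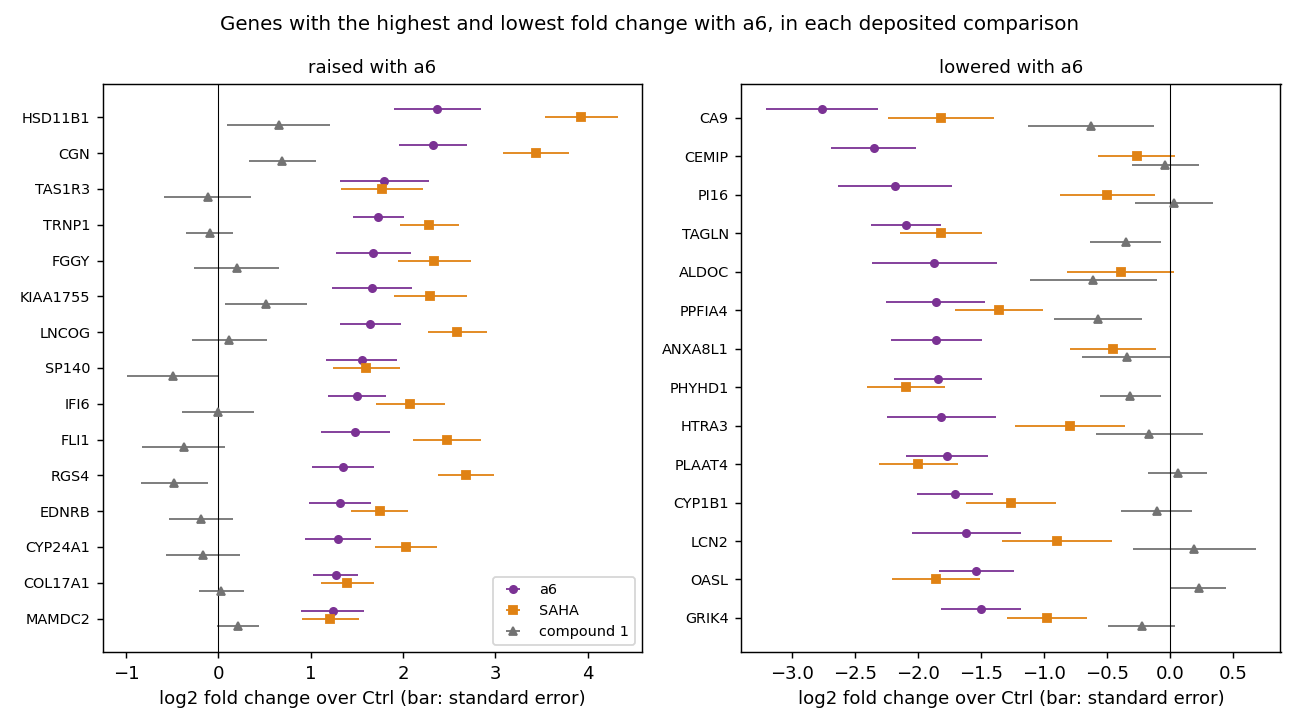
Log2 fold changes over Ctrl of the genes with the highest (left) and lowest (right) values with a6 among those with 50 or more normalized counts on average. Circles are a6, squares SAHA and triangles compound 1, with bars of 1 standard error from the authors' deposited tables. HSD11B1 (2.37) and CGN (2.33) lead the raised genes and CA9 (-2.76) and CEMIP (-2.35) the lowered ones with a6.

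Lists of the labelled targets and of genes tied to them held no called member. With 0.583% of all genes called, most lists of this size would hold 0, so this is not read as a result about them. At an unadjusted p under 0.05, 467 of all 15255 genes were higher and 664 lower (DESeq2 Wald test). Of 18 HDAC and sirtuin genes measured, 0 passed in the DESeq2 Wald test, and 0 had an unadjusted p under 0.05. HDAC1, HDAC2 and HDAC3, the class I nuclear enzymes, were at 0.38 ± 0.26, -0.07 ± 0.23 and -0.10 ± 0.22 per the authors' deposited table. HDAC6, which acts on tubulin, was at -0.44 ± 0.27 per the authors' deposited table, with a computed mean normalized count of 825 with a6 and 1120 in Ctrl. The 95% interval of its fold change ran from -0.97 to 0.09. The list's values ran from -0.87 in HDAC10, at a mean normalized count of 6.64 with a6 and 12.1 in Ctrl, to 0.43 in SIRT4.

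Of 23 genes that HDAC inhibitors raise in many cells, 0 passed in the DESeq2 Wald test; at an unadjusted p under 0.05, 2 were higher and 4 lower, and the median was -0.22. CDKN1A, the cell cycle inhibitor p21, had 3143 with a6 and 1882 in Ctrl, with a log2 fold change of 0.74 ± 0.30 (adjusted p 0.436) per the authors' deposited table. Its 95% interval ran from 0.14 to 1.34. CDKN1A had the highest log2 fold change of the list, in which 8 members lay above 0 and 15 below. The lowest member, H2BC21, named here for that value, was at -2.01. The smallest adjusted p of the list was 0.155 (DESeq2 Wald test), and it belonged to a member other than CDKN1A.

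Genes listed as known for promoter G4s numbered 25, of which 0 passed in the DESeq2 Wald test, with 0 higher and 4 lower at an unadjusted p under 0.05. Their median was -0.25, and 20 lay below 0. MYC, the best studied of them, had a computed mean normalized count of 3360 with a6 and 4237 in Ctrl, and a log2 fold change of -0.33 ± 0.30 and an adjusted p of 0.938 per the authors' deposited table. Its 95% interval, from -0.92 to 0.25, includes 0. BCL2, which blocks apoptosis, was at 0.25 ± 0.33 and TERT, the catalytic subunit of telomerase, at -0.39 ± 0.38 per the authors' deposited table. ADAM10, PDGFA and HIF1A, the members with the smallest adjusted p, were at -0.67 ± 0.27, -0.79 ± 0.35 and -0.84 ± 0.38 per the authors' deposited table. Of 33 G4 helicases and binding proteins, 0 passed in the DESeq2 Wald test, and 0 were higher and 1 lower at an unadjusted p under 0.05. That member was the chromatin remodeller ATRX, with 45.6 with a6 and 121 in Ctrl and a log2 fold change of -1.41 ± 0.50 per the authors' deposited table. Of 15 telomere genes 0 passed, and POT1, which binds telomere ends, was the 1 with an unadjusted p under 0.05, at -0.82 ± 0.32 per the authors' deposited table.

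Lists of cell division genes held no called member with a6. At 0.583% of all genes called, this too is not read as a result about them. Of 36 genes of the cell cycle and mitosis, 0 passed in the DESeq2 Wald test, with 0 higher and 3 lower at an unadjusted p under 0.05, and a median of -0.11. CENPF, CENPE and TTK, of the kinetochore and its checkpoint, were at -1.08 ± 0.36, -1.15 ± 0.53 and -0.75 ± 0.35 per the authors' deposited table. Of 41 DNA replication genes 0 passed, 1 was higher and 0 lower at an unadjusted p under 0.05, and the median was -0.01. In the 35 genes of homologous recombination and the Fanconi pathway 0 passed, with 0 higher and 2 lower at an unadjusted p under 0.05. Lists with 0 members past the DESeq2 Wald test also include p53 targets (23 measured, 3 higher and 0 lower at an unadjusted p under 0.05), the BCL2 family (16, 0 and 1), the unfolded protein and ATF4 response (32, 3 and 1), NRF2 targets (25, 0 and 2), TGF-beta targets (25, 1 and 2) and EGFR and its ligands (10, 2 and 1). Heat shock (15), nuclear genes of oxidative phosphorylation (36), immediate early genes (23) and ribosome biogenesis (29) had 0 members past it and 0 with an unadjusted p under 0.05.

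Replication-dependent histone genes, whose transcripts mostly lack a poly(A) tail and which were listed as a sign of RNA selection and quality, all lay below 0. Of 14 measured 0 rose and 1 fell, H2BC11, with 31.7 with a6 and 85.4 in Ctrl, and the median was -0.68. At an unadjusted p under 0.05, 6 were lower and 0 higher. Members of this family resemble each other, so the share of reads of each is uncertain. The 13 protein-coding genes of the mitochondrial genome, listed for the same purpose, had 0 members past the DESeq2 Wald test, 0 with an unadjusted p under 0.05 and a median of -0.01. Outside that list MT-TC, a tRNA gene of the mitochondrial genome named here after its value was seen, rose: it had 58.6 with a6 and 4.97 in Ctrl and was at 3.56 ± 0.79 (adjusted p 0.00340) per the authors' deposited table. The part of RNA quality in the histone and tRNA values was not tested.

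**Figure D3:**
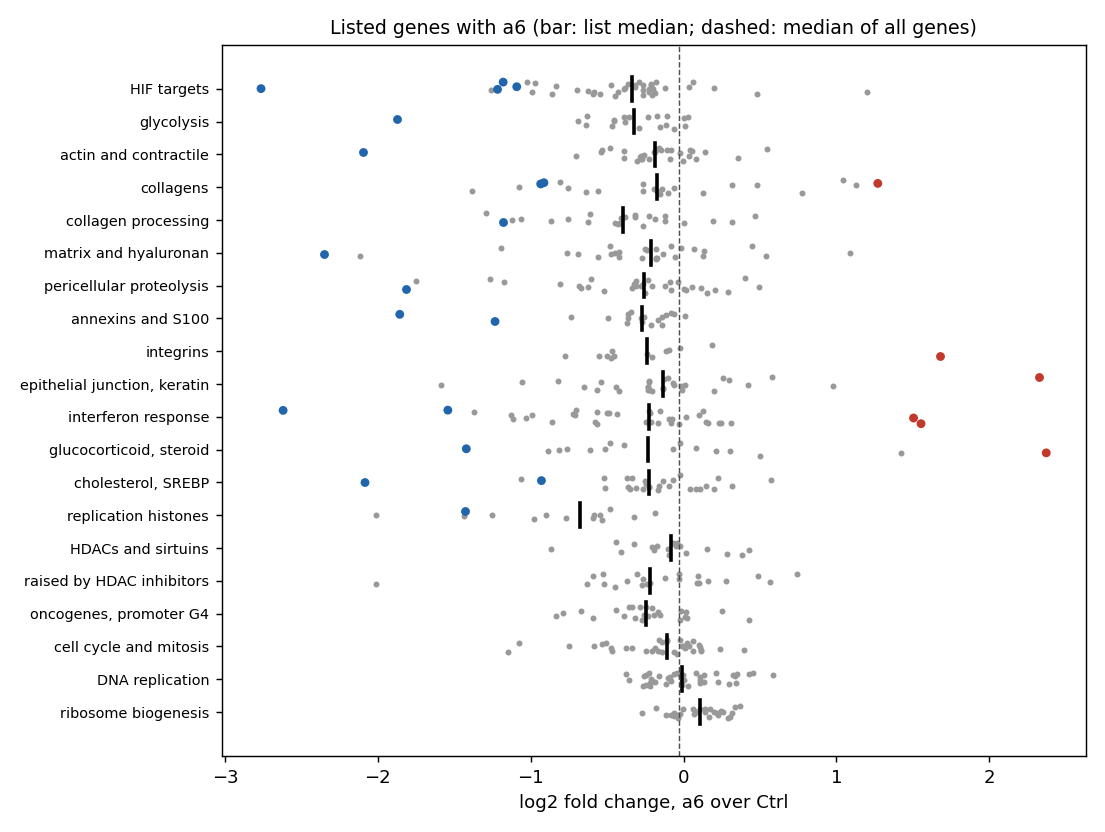
Each point is a listed gene, placed by its log2 fold change of a6 over Ctrl; lists run down the page, black bars are list medians and the dashed line is the median of all genes (-0.03). Blue and red points passed the test as lowered and raised. The row named for oncogenes holds all genes listed for promoter G4s. HIF targets hold 4 blue points and a median of -0.34, replication histones have the lowest median of the lists drawn (-0.68), and the lists of HDACs, cell cycle and DNA replication hold no coloured point.

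a6 was then set beside the other compounds, which share its Ctrl libraries, dose and time. With the same Ctrl in every fold change, likeness between compounds is not read as a result, and only differences were tested, with adjustment over both pairs together (two-sided z test on the difference of deposited log2 fold changes, Benjamini-Hochberg). Of 15255 genes, 34 differed between a6 and SAHA, which is 0.223%, with 8 higher and 26 lower with a6. At an unadjusted p under 0.05 there were 848. Of 15251 genes, 6 differed between a6 and compound 1, which is 0.0393%, with 1 higher and 5 lower with a6, and 222 had an unadjusted p under 0.05. The test took the errors of the fold changes as independent, and so do the errors and intervals of single differences below. With an error correlation of 0.5, which a shared Ctrl of equal spread would give, 188 genes were higher and 238 lower with a6 than with SAHA, and 38 were higher and 47 lower than with compound 1.

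For 32 of the 34 genes that differed from SAHA, the fold change was smaller in size with a6 than with SAHA. These 34 were selected by that difference, and the DESeq2 Wald test called 1399 of 18534 genes with SAHA, against 89 of 15255 with a6. Among genes called with a6, the change was larger in size with a6 than with SAHA for 37 of 52 lowered and 8 of 37 raised. Those sets were in turn selected by their change with a6. CPA4, a secreted carboxypeptidase, had a log2 fold change of 0.49 ± 0.21 with a6, against 3.15 ± 0.26 with SAHA, per the authors' deposited tables. The difference was -2.66 ± 0.33 (adjusted p 3.62e-11). IGFBP3, which binds insulin-like growth factors, was at 0.06 ± 0.25 with a6 and 1.88 ± 0.27 with SAHA per the authors' deposited tables, a difference of -1.82 ± 0.37 (adjusted p 0.00299). PHF19, a Polycomb cofactor, was at -0.04 ± 0.21 with a6 and -1.80 ± 0.24 with SAHA per the authors' deposited tables, a difference of 1.77 ± 0.32 (adjusted p 0.000256). The separase gene ESPL1, the chromosomal passenger gene CDCA8 and the recombination gene RAD54L likewise stood higher with a6, by 1.54 ± 0.37, 1.39 ± 0.35 and 1.49 ± 0.36. These genes were chosen after their values were seen, as were those of the next sentences.

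Some of the 34 genes had opposite signs. AQP3, a water and glycerol channel, was at -1.06 ± 0.31 with a6 and 1.07 ± 0.32 with SAHA per the authors' deposited tables, a difference of -2.13 ± 0.44 (adjusted p 0.00448). TNC was at -0.76 ± 0.24 with a6 and 0.91 ± 0.26 with SAHA per the authors' deposited tables, a difference of -1.67 ± 0.35 (adjusted p 0.00494). Neither passed for a6 against Ctrl. The hair keratin gene KRT86 also lay on opposite sides, at a mean normalized count of 43.0.

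With the errors taken as independent, 2 of the 89 genes called with a6 differed from SAHA. An error correlation of 0.5 gave the larger counts over all genes stated above. CEMIP was at -2.35 ± 0.34 with a6 and -0.27 ± 0.31 with SAHA per the authors' deposited tables, a difference of -2.09 ± 0.46 (adjusted p 0.00919). TFPI2 was at 0.87 ± 0.23 with a6 and 2.43 ± 0.26 with SAHA per the authors' deposited tables, a difference of -1.56 ± 0.35 (adjusted p 0.0123). For the others the difference did not pass under independent errors, which does not show equal action. The intervals given here would be narrower at an error correlation of 0.5. CA9 was at -2.76 ± 0.45 with a6 and -1.82 ± 0.42 with SAHA, and the 95% interval of the difference ran from -2.15 to 0.26. TAGLN was at -2.10 ± 0.28 with a6 and -1.82 ± 0.32 with SAHA, with an interval from -1.11 to 0.56. CGN was at 2.33 ± 0.37 with a6 and 3.44 ± 0.36 with SAHA, with an interval from -2.12 to -0.11 and an adjusted p of 1.00.

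**Figure D4:**
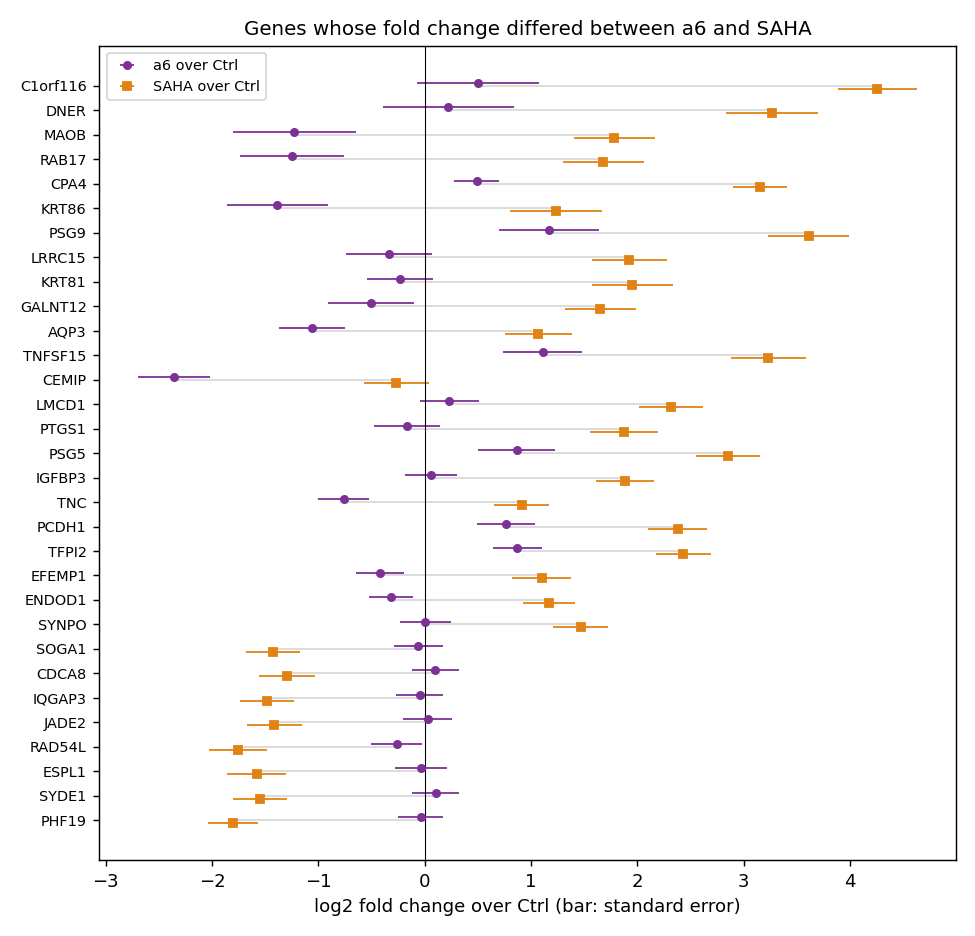
Log2 fold changes over Ctrl with a6 (circles) and SAHA (squares) for 31 of the 34 genes that differed, with bars of 1 standard error. In the upper rows the SAHA value lies to the right of the a6 value, and in the 8 lowest rows the a6 values lie near 0 and the SAHA values below -1.

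Against compound 1, CEMIP differed by -2.31 ± 0.43 (adjusted p 0.000481), being at -2.35 with a6 and -0.04 with compound 1 per the authors' deposited tables. TRNP1 was the gene that stood higher, at 1.73 with a6 and -0.09 with compound 1 per the authors' deposited tables, a difference of 1.83 ± 0.38 (adjusted p 0.00380). TAGLN was at -2.10 with a6 and -0.35 with compound 1 per the authors' deposited tables, a difference of -1.74 ± 0.40 (adjusted p 0.0160). OASL differed by -1.77 ± 0.37 (adjusted p 0.00482), PLAAT4 by -1.83 ± 0.40 (adjusted p 0.00885) and PI16 by -2.21 ± 0.55 (adjusted p 0.0439). CA9 was at -2.76 with a6 and -0.63 ± 0.50 with compound 1. Its difference of -2.14 ± 0.67 did not pass with the errors taken as independent (adjusted p 0.327, interval from -3.45 to -0.82). At an error correlation of 0.5 that interval would be narrower, and whether CA9 then passes is not given here. With the errors taken as independent, CEMIP is the gene that passed in both pairs.

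G4 motifs in promoters were counted because G4s are a named target of a6. The motif was 4 runs of 3 or more G with loops of 1 to 7 bases of any letter, G included, on either strand. It was found in a promoter of 11 of 23 raised genes that have one in RefSeq, 47.8%, of 17 of 36 lowered genes, 47.2%, and of 4349 of 10451 genes of the a6 table, 41.6%. Of the 27305 genes of the whole reference 27.9% have it in a promoter. A raised and a lowered gene are shown as examples, TRNP1 at chr1:26993442-26993741 and IGFBP6 at chr12:53097417-53097716, both on the plus strand of GRCh38.p14. IGFBP6 has the highest G4 number that the authors' deposited lists give to any lowered gene, 19. Capitals mark the motif.
TRNP1: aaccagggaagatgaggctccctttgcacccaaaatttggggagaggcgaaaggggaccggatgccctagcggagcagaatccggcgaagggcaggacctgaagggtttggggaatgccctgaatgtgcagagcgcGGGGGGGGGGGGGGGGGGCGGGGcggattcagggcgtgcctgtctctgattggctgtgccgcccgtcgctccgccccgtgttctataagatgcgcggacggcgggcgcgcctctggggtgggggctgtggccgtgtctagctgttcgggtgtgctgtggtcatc
IGFBP6: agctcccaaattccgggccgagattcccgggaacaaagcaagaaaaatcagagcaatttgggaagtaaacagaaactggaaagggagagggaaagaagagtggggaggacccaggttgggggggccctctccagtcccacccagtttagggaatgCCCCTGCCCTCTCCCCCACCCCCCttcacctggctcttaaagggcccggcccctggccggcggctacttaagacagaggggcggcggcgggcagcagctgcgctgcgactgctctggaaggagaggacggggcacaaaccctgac
In TRNP1 the match is a run of G broken by a single C on the strand of the gene. In IGFBP6 it lies on the other strand and is read as runs of C. With loops of up to 12 bases the shares were 56.5% of raised genes, 69.4% of lowered genes and 58.4% of all, and on the strand of the gene alone 30.4%, 27.8% and 25.6%. The median GC content of the longest transcript was 50.1% for raised, 56.3% for lowered and 49.2% for all genes.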

How the data were processed

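The files used were 3 comparison tables, the lists of genes changed with a6 and the lists of G4-related genes. Of tools and builds, cutadapt, DESeq2 and GRCh38 (hg38) appear in the submitters' processing notes; the aligner, the read counter, versions and strandedness were not given in the sources used here. Per the file headers, the authors deposited for each gene a log2 fold change, its standard error and Wald statistic (scores), the p-value before and after adjustment, and a normalized count averaged over the libraries (a signal). Per the file headers, the G4-related lists add a count of G4s. Checked on the values, the statistic equals the fold change over its error and the adjusted p a Benjamini-Hochberg adjustment. Columns with one library's values numbered 0.

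The main test was the deposited DESeq2 Wald test, passed when the adjusted p was under 0.05. Group means follow from the mean count with its fold change where groups are equal in size. Fold changes of compounds were subtracted and divided by the root of their summed squared errors, for a z test (two-sided) with Benjamini-Hochberg adjustment over both pairs; errors were taken as independent although Ctrl is shared, and the test was tested on simulated data with independent errors. The 45 gene lists are described by counts and medians. Positions, GC content and length came from GENCODE 29 on GRCh38 and promoters from RefSeq on GRCh38.p14, with python 3.11.15, pandas 2.3.3, scipy 1.17.1 and statsmodels 0.14.6.

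The rule for named genes allows every gene that passed at a mean normalized count of 50 or more, unless its name is that of a clone, LINC, antisense or small RNA, with full values for the 15 highest and 15 lowest; in each list the members that passed and up to 3 with the smallest adjusted p that did not; and CDKN1A, MYC, BCL2, VEGFA, TERT and the HDAC genes. Some genes that it takes are not reported here. The members and lists were chosen with earlier results of these data known. Alternatives were an adjusted p under 0.01, a 2-fold limit, a mean count of at least 50, centring, removal of lowess trends (share 0.3), Benjamini-Yekutieli adjustment, the authors' lists of changed genes, and an error correlation of 0.5 for differences.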

Additional observations from a re-analysis of the deposited data

How the results depend on the processing

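The counts of 37 raised and 52 lowered genes were 35 and 45 with a 2-fold limit, 43 and 48 after centring on the median fold change, 42 and 43 with the trend on mean count removed, and 29 and 47 with a mean count limit of 50. With the trends on transcript GC or length removed, both chosen after seeing the data, they were 42 and 44 and 38 and 42. They were 12 and 24 at an adjusted p under 0.01, 10 and 23 with Benjamini-Yekutieli adjustment, and 150 and 248 in the authors' deposited lists, which use an unadjusted p and a 2-fold limit. For differences, an error correlation of 0.5 gave 188 genes higher and 238 lower with a6 against SAHA, and 38 and 47 against compound 1. Of the 66 genes that the rule names, 4 lost their call after centring, 9, 8 and 10 with the trends on mean count, GC and length removed, and 0 with the count limit. All that lost it were lowered genes with a deposited adjusted p of at least 0.0106, and 0 changed sign. No paired analysis was possible because the tables hold no values per library, and for the same reason no replicate could be left out. Low counts limit what could be called: in the lowest of 3 classes by count a gene of median error needed a 3.52-fold change.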

Other observations

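The authors' deposited G4-related lists for a6 hold 74 names for raised genes and 326 for lowered genes. In the list for raised genes 58 names are among the 150 genes of the deposited list of raised genes, 38.7% of it, and 16 are not. In the list for lowered genes 118 names are among the 248 genes of the deposited list of lowered genes, 47.6% of it, and 208 are not. Each of these 16 and 208 names contains the name of a changed gene as a run of letters. The letters of C3, a complement gene, occur in 111 of the 208, those of the neuropeptide gene GAL in 45 and those of the nuclear pore gene TPR in 22. Among all names of the compound 1 table outside the list of lowered genes, 1.77% contain a name of that list. Of the 208 names, 132 were in the a6 table. Among them 0 passed in the DESeq2 Wald test and 10 had an unadjusted p under 0.05, and their median log2 fold change was -0.06 in the authors' deposited table. A count of G4-related genes taken from the length of the lists is thus larger than one taken from exact names. Of the genes called with a6, 13 of 37 raised and 24 of 52 lowered are in these lists by exact name. Over the deposited lists of changed genes, the highest number of G4s given to an exact name is 14 for KCNK7 (raised) and 19 for IGFBP6 (lowered). KCNK7 was not called with a6, and among the raised genes that were called the highest number is 11.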
